A study of Mus musculus with 9 samples.

Results

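Scx, Mkx, Egr1, Tnmd, Kera, Cilp and Cilp2 are 7 genes known from tendon, ligament and related dense connective tissue, and they were followed here through the healing femur of mice in which STING was blocked or activated. They were taken by symbol from a table of 22054 genes, and all 7 were found once and passed the filter on low counts in each comparison. Callus RNA collected on day 7 was represented by 9 libraries, 3 from mice injected with PBS, 3 from mice injected with H-151 and 3 from mice injected with SR-717. H-151 is a small molecule inhibitor of STING, given at 750 nmol, and SR-717 is a small molecule activator of STING, given at 30 mg/kg. All mice were male C57BL/6J, 7 weeks old by the labels, carried the same midshaft fracture of the left femur held by an intramedullary needle, and received 200 μl into the peritoneum every day for a week, so the control libraries share the fracture and the injections with the treated ones. The doses of the 2 compounds are in different units and were not matched to each other. The labels give the tissue as bone, their extraction text speaks of cell lines, and replicate numbers are given as biosamples without saying that each is a separate mouse. The p-values below therefore measure the spread between these libraries, whatever its source.

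Tendon cells are laid down under the transcription factor scleraxis, encoded by Scx, and keep their identity with the help of mohawk (Mkx) and the zinc finger protein EGR1, which also responds within minutes to growth factors and mechanical load. Tenomodulin (Tnmd) is a membrane protein that marks mature tendon and ligament cells. Their matrix is a scaffold of type I collagen trimmed by small proteoglycans, among them keratocan (Kera), and by the cartilage intermediate layer proteins CILP and CILP2. In a fractured long bone such cells can come from tendon and ligament insertions, periosteum, muscle connective tissue and the fibrous part of the callus. In bulk tissue, fewer cells of a type and less RNA per cell cannot be told apart, and this holds for every level given below.

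The promoters of Tnmd and Cilp are shown because these genes were the most abundant of the 7 per unit length. Tnmd was also the only one of the 7 past an unadjusted p under 0.05 and 1.5-fold between the treatments. Its Benjamini-Hochberg adjusted p in edgeR's test was 0.996. Both sequences are the stretch before the first exon in RefSeq's GRCm38.p6 window of 250 bases upstream of the start, 5′ to 3′ on the gene's own strand, which is the plus strand for both. Capitals mark CANNTG, the E-box, which basic helix-loop-helix proteins such as scleraxis bind.
Tnmd, chrX:133850758-133850979: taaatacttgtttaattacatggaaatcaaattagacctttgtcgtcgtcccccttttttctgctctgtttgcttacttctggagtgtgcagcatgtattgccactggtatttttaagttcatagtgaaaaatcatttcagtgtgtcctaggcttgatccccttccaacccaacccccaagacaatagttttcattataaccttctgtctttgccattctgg
Cilp, chr9:65264930-65265179: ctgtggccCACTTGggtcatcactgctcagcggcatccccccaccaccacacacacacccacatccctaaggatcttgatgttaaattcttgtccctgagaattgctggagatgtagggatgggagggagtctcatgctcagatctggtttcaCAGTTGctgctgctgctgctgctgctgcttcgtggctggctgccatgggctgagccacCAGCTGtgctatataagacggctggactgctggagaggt
The Cilp promoter held 3 E-boxes and the Tnmd promoter held 0. At least 1 CANNTG was present in 66.2% of 32851 mouse promoter windows of the same length, with a median of 1. The letters GCGNGGGCG, which EGR proteins bind and which were searched on both strands, were in 4.7% of these windows and in neither of the printed sequences. A window was on file for 4 of the 7 genes. That of Cilp2 held 1 CANNTG and 1 GCGNGGGCG, and that of Kera held neither. A match of letters is a description of the sequence, and no binding was measured.

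All 7 genes were detected in every library, with expected counts from 60 for Mkx in PBS replicate 2 to 4385 for Cilp in the same library. Per unit of transcript length, in TPM (transcript levels scaled for length and library total), the order of the means over the 9 libraries was Tnmd 125.2 ± 48.5 (SD), Cilp 67.6 ± 19.3, Scx 37.4 ± 17.9, Egr1 33.0 ± 9.32, Cilp2 10.7 ± 4.70, Kera 9.10 ± 3.15 and Mkx 3.11 ± 1.47. Tnmd stood above Cilp in 8 of 9 libraries and Cilp above Scx in all 9. Scx and Egr1 were neighbours that changed places, with Scx above Egr1 in 6 of 9 libraries, and so were Cilp2 and Kera, with Cilp2 higher in 6 of 9. The ranges of neighbouring genes over the 9 libraries overlapped at every step of the order except between Egr1 and Cilp2. By mean TPM, Tnmd ranked 1081 and Mkx 11548 among the 22054 genes. In the SR-717 group Egr1 stood above Scx in the order of the means, at 36.6 ± 12.1 against 23.9 ± 13.2 TPM (n = 3). It did so in 2 of 3 SR-717 libraries, and the ranges overlapped. In the PBS group Scx stood above Egr1, at 41.8 ± 6.16 against 26.2 ± 2.24 TPM (n = 3), in 3 of 3 libraries and without overlap.

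**Figure D1:**
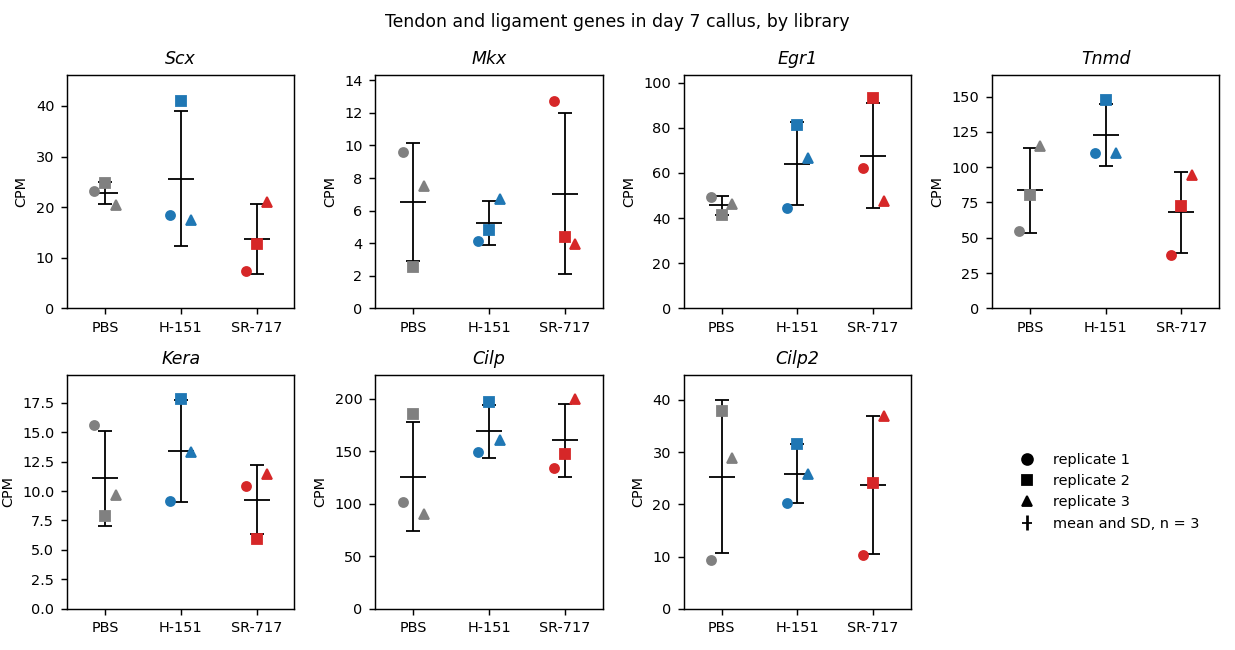
CPM (counts scaled to library size, linear axes from 0) of the 7 genes in each of the 9 libraries, by group. Points are libraries, with the replicate number by shape, and bars are the mean and SD of 3 libraries. The 3 H-151 libraries lie above the 3 SR-717 libraries for Tnmd, and the groups overlap for the other 6 genes in that comparison.

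Tnmd, the marker of mature tendon cells, was lower with SR-717 than with H-151, and it was the only one of the 7 genes past an unadjusted p under 0.05 and a change of 1.5-fold in any comparison. Of all genes tested between these groups, 0.756% were. In CPM (counts scaled to library size), it stood at 54.8, 80.6 and 115.2 in PBS replicates 1, 2 and 3, at 109.9, 147.8 and 110.1 in H-151 and at 37.6, 72.2 and 94.1 in SR-717. All 3 H-151 libraries were above all 3 SR-717 libraries, which 5.18% of all tested genes had in one direction or the other, and the PBS libraries overlapped both groups. With SR-717 the mean was 68.0 ± 28.5 CPM against 122.6 ± 21.8 CPM with H-151 (SD, n = 3 each), a fold of 0.55 and a log2 fold change of -0.86 (SE 0.34). The unadjusted p of edgeR's quasi-likelihood test was 0.0431 and the Benjamini-Hochberg adjusted p over all genes was 0.996. The two-sided exact permutation test gave p = 0.1, the smallest that 3 libraries against 3 allow. Tnmd ranked 112 of 14151 tested genes by p in this comparison.

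The difference in Tnmd was no longer past both p under 0.05 and a change of 1.5-fold when any 1 of 5 libraries was left out. Without H-151 replicate 1, 2 or 3 the log2 fold change was -0.93, -0.70 or -0.94, with an unadjusted edgeR p of 0.0678, 0.127 or 0.0674. Without SR-717 replicate 2 it was -0.91, with an unadjusted edgeR p of 0.0803. Without SR-717 replicate 1 it was -0.57, with an unadjusted edgeR p of 0.0240 but a change under 1.5-fold. Without SR-717 replicate 3 it was -1.17 and past both thresholds, where 661 of 14365 genes were. In a fit with replicate numbers as a block it was -0.95 (SE 0.29, edgeR's unadjusted p = 0.0269) and past both, where 143 of 14151 genes were. SR-717 replicate 1, the library with the lowest Tnmd, also stood apart from the rest over all genes, at 100.6 on a first principal component that held 46.6% of the variance, where PBS replicate 1 was at 38.8 and the other 7 libraries between -28.8 and -4.03.

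**Figure D2:**
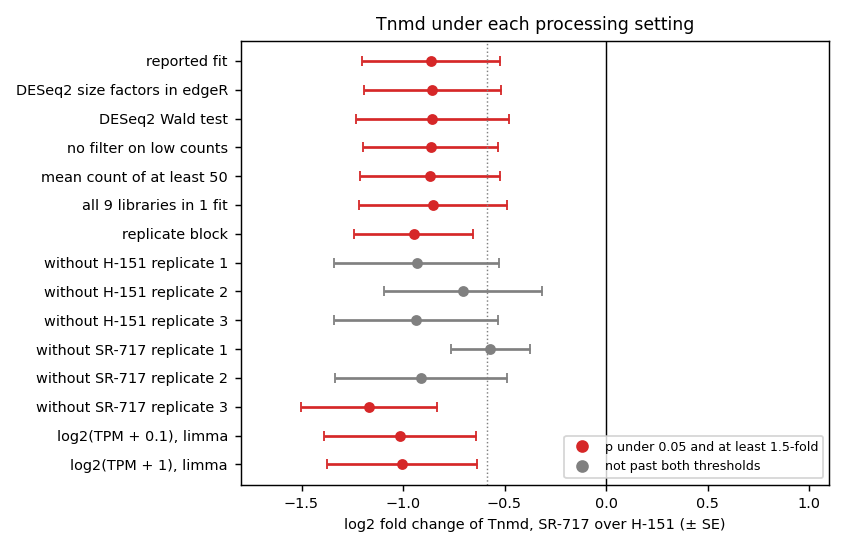
Log2 fold change of Tnmd with SR-717 over H-151 (x axis, bars are SE) under the reported fit and 14 alternatives, listed on the y axis. Every value is negative, from -1.17 to -0.57, and the 5 grey points are the settings without 1 library that are not past both thresholds, the 1.5-fold line being dotted.

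Against PBS, neither treatment passed the thresholds for Tnmd. With H-151 the log2 fold change of Tnmd was 0.55 (SE 0.28, edgeR's unadjusted p = 0.0904), and with SR-717 it was -0.30 (SE 0.41, edgeR's unadjusted p = 0.490). In a fit with replicate numbers as a block, the H-151 difference was 0.61 (SE 0.23, edgeR's unadjusted p = 0.0400) and past both thresholds, in a blocked comparison where 1.86% of all genes were. It was also past them without PBS replicate 3, at 0.86 (edgeR's unadjusted p = 0.0102), where 153 of 14252 genes were. The H-151 difference was 0.34 (edgeR's unadjusted p = 0.187) without PBS replicate 1. With the block the SR-717 difference was -0.33 (SE 0.15, edgeR's unadjusted p = 0.0837) and not past the thresholds. Without the block, the negative sign with SR-717 was lost without PBS replicate 3, at 0.0057 (edgeR's unadjusted p = 0.990). It was also lost without SR-717 replicate 1, at 0.0011 (edgeR's unadjusted p = 0.997). Both comparisons use the same 3 PBS libraries, so they are not independent of each other.

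Scx, the transcription factor of tendon progenitors, had its lowest values in the SR-717 group. It stood at 23.2, 24.7 and 20.5 CPM in PBS, at 18.5, 41.1 and 17.4 CPM in H-151 and at 7.39, 12.8 and 21.1 CPM in SR-717. The PBS libraries were close together, with a coefficient of variation of 9.42%, H-151 replicate 2 was far above the other libraries of its group, and SR-717 replicate 3 lay inside the PBS range. The log2 fold change of Scx was -0.73 (SE 0.38, edgeR's unadjusted p = 0.0976) for SR-717 against PBS, -0.91 (SE 0.49, unadjusted p = 0.111) for SR-717 against H-151 and 0.17 (SE 0.34, unadjusted p = 0.630) for H-151 against PBS. Without SR-717 replicate 3 the first of these was -1.18 (edgeR's unadjusted p = 0.00988) and the second -1.36 (unadjusted p = 0.0383), both then past the thresholds. In those fits 319 of 14362 genes passed them against PBS and 661 of 14365 against H-151. In the other direction, Scx for SR-717 against PBS was at -0.43 (edgeR's unadjusted p = 0.154) without SR-717 replicate 1. For SR-717 against H-151 it was at -0.40 (edgeR's unadjusted p = 0.411) without H-151 replicate 2. Scx is a gene of 1 exon block, at 76457452 to 76459458 on the plus strand of chromosome 15 (GRCm38), and lies inside the span of Bop1, a ribosome biogenesis gene of the minus strand, with 0 exon bases in common. Bop1 ran from 43.6 to 66.6 CPM over the 9 libraries.

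Mkx, a homeobox factor of tendon, was the least abundant of the 7 per unit length, and varied within groups by a coefficient of variation of 55.4% in PBS, 25.3% in H-151 and 70.3% in SR-717. It stood at 9.59, 2.54 and 7.53 CPM in PBS, at 4.17, 4.83 and 6.73 CPM in H-151 and at 12.8, 4.41 and 3.97 CPM in SR-717. The highest and the lowest library of the series, SR-717 replicate 1 and PBS replicate 2, were not in the same group, and the 3 groups overlapped. The log2 fold changes of Mkx were 0.11 (SE 0.64) for SR-717 against PBS, -0.32 (SE 0.48) for H-151 against PBS and 0.42 (SE 0.50) for SR-717 against H-151, with unadjusted edgeR p of 0.872, 0.531 and 0.435. Differences of these sizes were smaller than their standard errors. Mkx lies on the minus strand of chromosome 18 at 6934518 to 7004780 and shares 201 exon bases with AC148004.2, a transcript of the same strand. AC148004.2 is not listed under its identifier among the genes of the deposited data, so the count of Mkx is uncertain to that extent.

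Egr1, on chromosome 18 at 34859823 to 34864984, was higher on average in both treated groups than in PBS, without passing the thresholds. It stood at 49.3, 41.3 and 46.1 CPM in PBS, at 44.6, 81.1 and 66.4 CPM in H-151 and at 62.3, 93.3 and 47.4 CPM in SR-717. In each treated group 2 of 3 libraries were above every PBS library and the remaining one was within the PBS range, and the PBS libraries differed by a coefficient of variation of 8.82% against 28.7% and 34.6% in the treated groups. The log2 fold change of Egr1 was 0.57 (SE 0.27, edgeR's unadjusted p = 0.0727) with SR-717 and 0.49 (SE 0.23, unadjusted p = 0.0662) with H-151, both against the same PBS libraries. Leaving out the treated library nearest to PBS put each past the thresholds, at 0.77 without SR-717 replicate 3 (edgeR's unadjusted p = 0.0194) and at 0.70 without H-151 replicate 1 (unadjusted p = 0.00743). In those fits 319 of 14362 and 62 of 14218 genes passed them. Leaving out the highest library of each treated group lowered the log2 fold change of Egr1, to 0.27 without SR-717 replicate 2 (edgeR's unadjusted p = 0.270) and to 0.29 without H-151 replicate 2 (edgeR's unadjusted p = 0.242). Between the treatments the log2 fold change was 0.07 (SE 0.32, unadjusted p = 0.831).

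Kera, the corneal and tendon keratan sulfate proteoglycan, overlapped among the 3 groups. Its level was 15.6, 7.91 and 9.67 CPM in PBS, 9.12, 17.8 and 13.3 CPM in H-151 and 10.4, 5.91 and 11.4 CPM in SR-717. The largest of its differences was that of SR-717 against H-151, with a log2 fold change of -0.55 (SE 0.35, edgeR's unadjusted p = 0.163), and against PBS the log2 fold changes were -0.26 (SE 0.37) with SR-717 and 0.28 (SE 0.34) with H-151. Kera lies on the plus strand of chromosome 10 at 97606879 to 97613692.

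Cilp, a large secreted matrix protein that binds TGF-β1, was lower in PBS replicates 1 and 3 than in every treated library. It stood at 101.8, 185.4 and 90.4 CPM in PBS, at 149.0, 197.2 and 160.7 CPM in H-151 and at 133.8, 147.5 and 199.9 CPM in SR-717. PBS replicate 2 was above 4 of the 6 treated libraries, so the groups overlapped. The log2 fold change of Cilp was 0.35 (SE 0.32, edgeR's unadjusted p = 0.317) with SR-717 and 0.43 (SE 0.29, unadjusted p = 0.189) with H-151, against the same PBS libraries. Without PBS replicate 2 these became 0.73 (edgeR's unadjusted p = 0.0269) and 0.83 (unadjusted p = 0.00410) and passed the thresholds. In those fits 259 of 14229 genes passed for SR-717 against PBS and 698 of 14229 for H-151 against PBS. Without PBS replicate 3 the values of Cilp were instead 0.16 (edgeR's unadjusted p = 0.654) with SR-717 and 0.23 (edgeR's unadjusted p = 0.433) with H-151. Without SR-717 replicate 3 the SR-717 value was 0.16 (edgeR's unadjusted p = 0.673). In fits with replicate numbers as a block, the SR-717 value was 0.40 (SE 0.31, edgeR's unadjusted p = 0.254). The H-151 value was then 0.49 (SE 0.17, edgeR's unadjusted p = 0.0304), under 1.5-fold. The compounds differed from each other by -0.09 on the log2 scale (SE 0.20, unadjusted p = 0.685). Cilp spans 65265180 to 65280605 on the plus strand of chromosome 9, in 11 exon blocks.

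Cilp2, the paralog of Cilp, varied as widely within the PBS and SR-717 groups as between any of the groups. Its level was 9.25, 37.9 and 28.8 CPM in PBS, 20.3, 31.7 and 25.8 CPM in H-151 and 10.3, 24.0 and 36.8 CPM in SR-717. PBS replicate 1 and SR-717 replicate 1 held the lowest values, and the H-151 libraries lay inside the ranges of both other groups. Its log2 fold changes were -0.10 (SE 0.62), 0.03 (SE 0.47) and -0.14 (SE 0.45) for SR-717 against PBS, H-151 against PBS and SR-717 against H-151, with unadjusted edgeR p of 0.883, 0.949 and 0.769. The ratio of Cilp to Cilp2 in TPM had a median of 6.47 and ran from 3.26 in PBS replicate 3 to 13.5 in SR-717 replicate 1. Cilp2 lies on the minus strand of chromosome 8 at 69880369 to 69887687, in 8 exon blocks, and Tnmd on the plus strand of the X chromosome at 133850980 to 133865577, in 7.

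**Figure D3:**
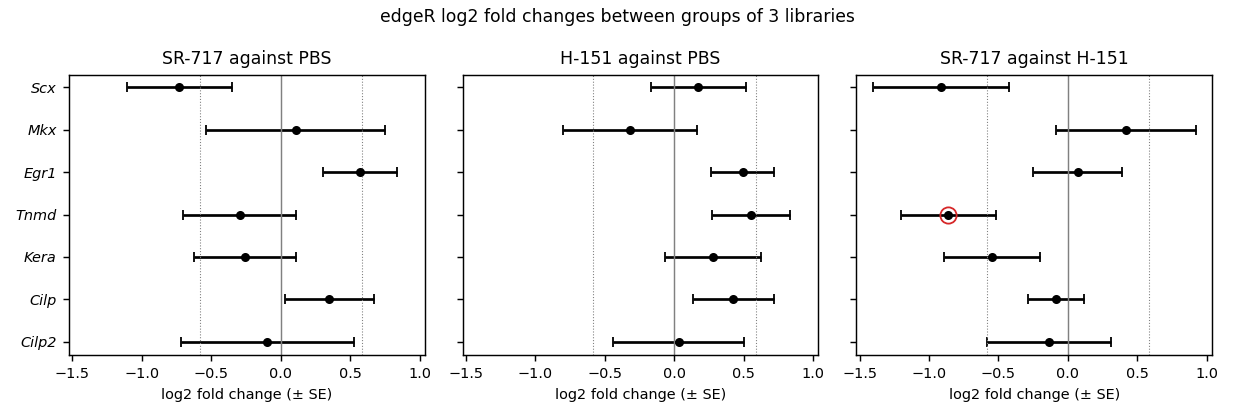
Log2 fold changes (x axes, bars are SE) of the 7 genes in the 3 comparisons of 3 libraries against 3, from edgeR's fits across all genes. Dotted lines mark 1.5-fold and the red circle marks Tnmd, the one gene past both thresholds, at -0.86 with SR-717 over H-151.

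As a list, the 7 genes gave 0, 0 and 1 calls at an unadjusted p under 0.05 and a change of 1.5-fold for SR-717 against PBS, H-151 against PBS and SR-717 against H-151. Over all genes tested, 0.519%, 0.426% and 0.756% passed the same thresholds, or 73 of 14070, 60 of 14085 and 107 of 14151. With replicate numbers fitted as a block, the 7 genes gave 0 calls for SR-717 against PBS, where 3.15% of all genes were called, and 1 for H-151 against PBS, where 1.86% were. At an adjusted p under 0.05, edgeR called 0% of all genes in each comparison, so that 0 of the 7 were called, and the adjusted p of the 7 ran from 0.996 to 0.9999. At an unadjusted p under 0.05 edgeR had 97, 91 and 146 genes, and DESeq2 had 0, 0 and 1 genes at an adjusted p under 0.05. Groups did not overlap for 0, 0 and 1 of the 7 genes, where 3.75%, 3.87% and 5.18% of all tested genes had groups that did not overlap. The median log2 fold change of the 7 genes was -0.10, 0.28 and -0.14 in the 3 comparisons, against 0.01, -0.02 and 0.02 over all tested genes. With H-151 against PBS, 6 of the 7 values were above 0, with SR-717 against PBS 3 were, and with SR-717 against H-151 2 were.

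How far the 7 genes varied together from library to library was read from their 21 pairs. Of these, 0 had an adjusted p under 0.05 for the Pearson correlation of log2 CPM over the 9 libraries (exact permutation test). The largest correlation was negative, between Mkx and Cilp2, with r = -0.80 (exact permutation p = 0.0085, adjusted 0.179) and rho = -0.70 (exact permutation p = 0.0433, adjusted 0.352). Without PBS replicate 1 and SR-717 replicate 1, the libraries farthest from the median of Mkx, r was -0.39. Without SR-717 replicate 1 alone it was -0.69. Tnmd correlated with Cilp2 at r = 0.75 (exact permutation p = 0.0214, adjusted 0.196; rho = 0.52, exact permutation p = 0.162, adjusted 0.642) and with Scx at r = 0.73 (exact permutation p = 0.0280, adjusted 0.196; rho = 0.40, exact permutation p = 0.291, adjusted 0.642). For Tnmd and Cilp2, r was -0.06 without PBS replicate 1 and SR-717 replicate 1, and 0.60 without SR-717 replicate 1 alone. For Scx and Tnmd, r was -0.10 without H-151 replicate 2 and SR-717 replicate 1, and 0.41 without SR-717 replicate 1 alone. Leaving out the libraries at the ends narrows the range of a gene, which can lower r by itself. These values therefore cannot show which libraries a relation rests on. On deviations from the group means, the 3 values of r were -0.79, 0.87 and 0.67. The ratio of Tnmd to Scx in TPM ran from 1.81 in PBS replicate 1 to 4.84 in H-151 replicate 3, with a median of 3.89, while that of Tnmd to Mkx ran from 7.94 in SR-717 replicate 1 to 85.7 in PBS replicate 2.

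**Figure D4:**
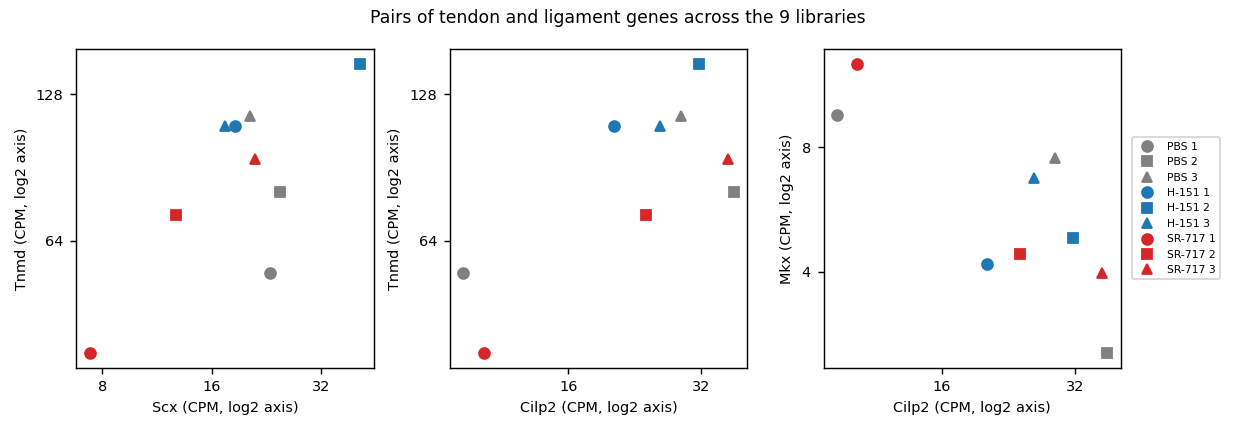
Levels (CPM, log2 axes) of Tnmd against Scx, Tnmd against Cilp2 and Mkx against Cilp2, with 1 point for each of the 9 libraries, coloured by group and shaped by replicate number. SR-717 replicate 1 lies at or near an end of each plot, and r over all 9 is 0.73, 0.75 and -0.80 from left to right.

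Among 13518 genes with a mean of at least 1 CPM, those with a pattern over the 9 libraries most like each of the 7 were found by Pearson's r of log2 CPM, as a description. Nearest to Scx were Dusp14, Rgs4 and Bcl7b, at r of 0.96, 0.95 and 0.95. Nearest to Mkx were Mapk6, Eif2a and Twf1, at 0.98, 0.97 and 0.97. Nearest to Egr1 were Kif23, Gm14419 and Epc1, at 0.94, 0.89 and 0.88. For Tnmd they were Dync2i2, Shroom1 and Izumo4, at 0.97, 0.96 and 0.96, and for Kera Psmc1, Nt5c and 4930523C07Rik, at 0.91, 0.90 and 0.89. For Cilp they included Pgp and Tnxb, at 0.98 and 0.97, and for Cilp2 they were Flywch1, Ptpa and Fads2, at 0.98, 0.97 and 0.97. Of these, Tnxb encodes tenascin-X, an extracellular matrix protein of connective tissue. No gene of the 7 was among the 3 nearest to another. The points share the same libraries and the same spread along the first principal component.

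Of 14 further transcription factors and cofactors of tendon, all of them tested, Egr2 was higher with SR-717 and with H-151 than with PBS and the other 13 did not pass the thresholds in any comparison. Egr2 is a zinc finger factor close to Egr1 that also takes part in tendon collagen expression. It stood at 6.28, 5.12 and 4.55 CPM in PBS, at 8.04, 8.58 and 10.3 CPM in H-151 and at 7.95, 10.3 and 7.42 CPM in SR-717. All 6 treated libraries were above all 3 PBS libraries. Groups did not overlap for 3.75% of all tested genes for SR-717 against PBS and 3.87% for H-151 against PBS. Over all genes tested, 0.519% and 0.426% passed the thresholds in the same comparisons. The log2 fold change of Egr2 was 0.75 (SE 0.22, edgeR's unadjusted p = 0.0112) with H-151 and 0.69 (SE 0.25, edgeR's unadjusted p = 0.0310) with SR-717, with adjusted p of 0.9999 for both and with the PBS libraries shared. It did not pass both thresholds with SR-717 without PBS replicate 2, PBS replicate 3 or SR-717 replicate 2, where the log2 fold change was 0.65, 0.59 and 0.53. The most abundant factors of the list were Nab2, a corepressor of EGR proteins, at a mean of 37.5 TPM, and Nfatc4, at 31.6 TPM.

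**Figure D5:**
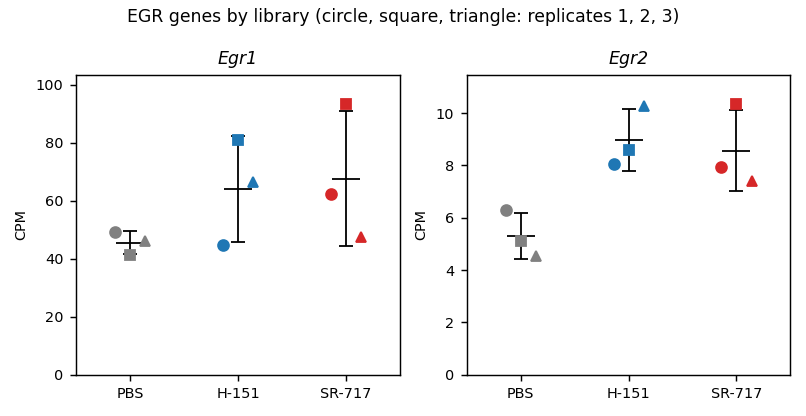
Levels (CPM, linear axes from 0) of Egr1 and Egr2 in each of the 9 libraries, by group, with the mean and SD of 3 libraries as bars. The treated groups overlap with PBS for Egr1, and all 6 treated libraries lie above the PBS libraries for Egr2.

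Of 16 tested immediate early genes out of 17 listed, a class induced within minutes of a stimulus that includes EGR genes, Egr2 alone passed the thresholds, against PBS. Over all genes tested, 0.519% passed for SR-717 against PBS and 0.426% for H-151 against PBS. Egr2 and Egr3 are in this list and in that of tendon factors. The median log2 fold change of the list was 0.38 for SR-717 against PBS, 0.14 for H-151 against PBS and 0.16 for SR-717 against H-151, with 12, 10 and 9 of 16 above 0. The most abundant were Junb, at a mean of 109.4 TPM, and Dusp1, at 77.0 TPM. The summed level of the list was highest in SR-717 replicate 1, at 1223 TPM, and lowest in PBS replicate 3, at 324.0 TPM. SR-717 replicates 2 and 3 were at 495.0 and 471.6 TPM, inside the PBS range of 324.0 to 914.6 TPM. The H-151 libraries ran from 436.0 to 859.9 TPM, also inside it.

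The matrix that tendon and ligament share with other connective tissue was abundant. Of 27 tested matrix genes, led by Col1a1 at a mean of 9939 TPM and Col1a2 at 8474 TPM, the chains of type I collagen, 0 passed the thresholds in any comparison. Over all genes tested, 0.519% passed for SR-717 against PBS, 0.426% for H-151 against PBS and 0.756% for SR-717 against H-151. With shares so low, 0 of 27 does not set these genes apart. The median log2 fold change of the 27 was -0.18 for SR-717 against PBS, where 23 of 27 values were below 0, -0.06 for H-151 against PBS and -0.11 for SR-717 against H-151, where 20 of 27 were below 0. Summed over the list, the level ran from 33801 to 40146 TPM in PBS, from 28766 to 39971 TPM in H-151 and from 24257 to 39416 TPM in SR-717, so the groups overlapped.

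Of the TGF-β and BMP family, which induces Scx and other tendon genes, 17 of 18 listed ligands and signal transducers were found and 15 were tested. Ccn2, the connective tissue growth factor that TGF-β induces, was lower with SR-717 than with PBS, and the other 14 did not pass the thresholds in any comparison. It stood at 272.3, 218.9 and 208.1 CPM in PBS, at 166.9, 265.6 and 176.8 CPM in H-151 and at 103.8, 154.5 and 158.2 CPM in SR-717. The SR-717 libraries were below all 6 others. Groups did not overlap for 3.75% of all tested genes for SR-717 against PBS and 5.18% for SR-717 against H-151. Over all genes, 0.519% passed the thresholds for SR-717 against PBS. The log2 fold change of Ccn2 was -0.75 (SE 0.22, edgeR's unadjusted p = 0.0140, adjusted p = 0.9999) for SR-717 against PBS and -0.56 (edgeR's unadjusted p = 0.0686) for SR-717 against H-151. Without SR-717 replicate 1 the first was -0.57 and under 1.5-fold. Tgfb1 was the most abundant of the list, at a mean of 161.1 TPM.

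Markers of other cells of the dissected tissue differed widely between libraries. Summed chondrocyte markers, such as Col2a1 and Acan, ran from 706.9 to 6690 TPM in PBS, from 1990 to 4835 TPM in H-151 and from 148.9 to 3345 TPM in SR-717, with all 10 lower on average with SR-717 than with H-151 (median log2 fold change -1.03) and than with PBS (-0.98). Summed neutrophil markers, such as S100a8 and S100a9, ran from 1504 to 9735 TPM in PBS, from 3001 to 12137 TPM in H-151 and from 6593 to 35000 TPM in SR-717, with all 10 higher on average with SR-717 than with H-151 (median log2 fold change 1.25) and than with PBS (1.65). SR-717 replicate 1, where Tnmd and Scx were lowest, held both the lowest chondrocyte and the highest neutrophil value. Neutrophil markers in SR-717 replicates 2 and 3 summed to 9250 and 6593 TPM. These were below H-151 replicates 1 and 2, at 12137 and 10808 TPM, and PBS replicate 1, at 9735 TPM. They were above H-151 replicate 3, at 3001 TPM, and PBS replicate 3, at 1504 TPM. Whether the marker differences hold without SR-717 replicate 1 was not tested. Skeletal muscle markers summed to 5996 to 27287 TPM in PBS, 16897 to 25926 TPM in H-151 and 11155 to 32938 TPM in SR-717, and osteoblast markers to 6239 to 13239, 5485 to 9499 and 4161 to 9484 TPM. Of the lists nearest to tendon, markers of synovium and tendon sheath summed to 117.1 to 195.3, 145.7 to 202.1 and 111.7 to 174.5 TPM, and fibroblast markers to 1233 to 1791, 1337 to 1434 and 1125 to 1402 TPM. Schwann cell markers summed to 114.1 to 195.0, 143.1 to 219.7 and 114.9 to 183.4 TPM, adipocyte markers to 296.7 to 397.2, 394.8 to 470.6 and 279.2 to 426.4 TPM, and keratinocyte markers to 12.8 to 27.2, 10.8 to 16.4 and 16.6 to 24.3 TPM, with Krt15 listed at 0 in all PBS libraries. No other gene of these lists was at 0 throughout a group. Of all these markers, Dsp of the keratinocyte list alone passed the thresholds, for SR-717 against PBS, where 0.519% of all genes did. Its log2 fold change was 1.83 (SE 0.59, edgeR's unadjusted p = 0.0194). It was not past the thresholds without PBS replicate 1, PBS replicate 3 or SR-717 replicate 3. The part of these cells in the differences of the 7 genes was not tested.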

How the data were processed

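Strand-specific, paired-end RNA-seq libraries were made from poly(A) RNA of callus. The authors deposited an expected count per gene, without normalization, and TPM, which the authors scaled for gene length and library total. The submitters' processing notes name mm10. The aligner, counting program, annotation and use of strand are not given in the sources used here, so overlapping genes are uncertain. A library held 16987398 to 23272480 counts, the number of unused per-sample columns was 0, and 8.91% of expected counts were not whole and were rounded.

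Comparisons used edgeR 4.0.16 in R 4.3.3 on the 6 libraries of the groups compared: filterByExpr (count of 10, total of 15), TMM, glmQLFit and glmQLFTest, without covariates and over all genes, with Benjamini-Hochberg adjustment. SEs were derived from the F statistic. Thresholds were p under 0.05, taken as unadjusted, and 1.5-fold. CPM used TMM over the 9 libraries, and log2 CPM a prior count of 2. The procedure was tested on simulated data. DESeq2 1.42.0, limma 3.58.1 on log2(TPM + 0.1), other filters, a replicate block and each library left out in turn were alternatives. The common biological coefficient of variation was 0.388 for SR-717 against PBS, 0.296 for H-151 against PBS and 0.336 for SR-717 against H-151. Libraries of a group differed by more than sampling noise, with a chi-square per gene of 25.8 to 269.

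Deviations from group means of same-numbered libraries correlated at 0.136 to 0.668 for SR-717 and PBS and at 0.313 to 0.511 for H-151 and PBS. Of 3 SR-717 libraries, 2 correlated best with the PBS library of their own number, and of 3 H-151 libraries 3 did. For these comparisons the numbers were taken as pairs in the fits with a replicate block. The reported fits, and those with a library left out, are unpaired. For SR-717 and H-151 the range was 0.0733 to 0.347, and the numbers were not taken as pairs. A number that joined each treatment to PBS would also join the treatments to each other. The choice is therefore not consistent if the numbers mark blocks. What these numbers mark is not explained in the labels.

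The 7 genes and the lists of related and marker genes were chosen with earlier results of these data known. Named besides the 7 were, per list of related genes, up to 3 past the thresholds and the 2 with the highest mean TPM, the 3 nearest in pattern to each of the 7, overlapping genes and markers at 0 in a group. A gene that this rule selected is not reported here. Other marker genes were named after their values were seen. Of the listed TGF-β and BMP genes, Bmp12 was not found under that symbol. Positions are from GENCODE's GRCm38 annotation, matched by Ensembl identifier, and promoters from RefSeq.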

Additional observations from a re-analysis of the deposited data

How the results depend on the processing

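Across the 7 genes and 3 comparisons, settings other than leaving out a library gave 165 log2 fold changes with the same direction and side of the thresholds, 2 that reversed and 1 that passed them. The reversed values were Mkx for SR-717 against PBS, -0.0060 on log2(TPM + 0.1) and -0.015 on log2(TPM + 1), against 0.11 reported. The value that passed was Tnmd for H-151 against PBS with the replicate block, which took the calls among the 7 genes from 0 to 1. The replicate block changed no other call among the 7.

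With each library left out in turn, 95 log2 fold changes kept direction and call, 19 reversed, 7 passed the thresholds and 5 no longer did, the 5 all being Tnmd for SR-717 against H-151. Calls among the 7 genes ran from 0 to 2 for SR-717 against PBS, 0 to 1 for H-151 against PBS and 0 to 2 for SR-717 against H-151. Both counts of 2 came without SR-717 replicate 3, where 319 of 14362 and 661 of 14365 genes were called. For H-151 against PBS, 1 call came without PBS replicate 2, PBS replicate 3 or H-151 replicate 1. Over all genes, 698 of 14229, 153 of 14252 and 62 of 14218 were called in these settings. For SR-717 against PBS, log2 fold changes that reversed ran from -0.64 to 0.49 for Mkx, -0.61 to 0.0057 for Tnmd, -0.46 to 0.076 for Kera and -0.56 to 0.32 for Cilp2. For H-151 against PBS they ran from -0.34 to 0.39 for Scx, -0.70 to 0.080 for Mkx and -0.36 to 0.46 for Cilp2. For SR-717 against H-151 they ran from -0.33 to 0.70 for Mkx, -0.24 to 0.28 for Egr1, -0.27 to 0.041 for Cilp and -0.60 to 0.22 for Cilp2. The cause of the reversals was not tested. Correlations at an adjusted p under 0.05 numbered 0 in every setting run.

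Calls over all genes in the count-based settings ran from 37 to 443 for SR-717 against PBS (73 reported, highest with the replicate block), 28 to 698 for H-151 against PBS (60 reported, highest without PBS replicate 2) and 61 to 661 for SR-717 against H-151 (107 reported, highest without SR-717 replicate 3). For SR-717 against H-151 the replicate block gave 143 calls against 107, and 1 of 3 SR-717 libraries correlated best with the H-151 library of its own number. Alternatives for Egr2, Ccn2 and Dsp were added after seeing the data: Egr2 stayed past both thresholds in 13 of 14 for H-151 and 10 of 14 for SR-717 against PBS, Ccn2 in 13 of 14 and Dsp in 9 of 13. The lowest counts of the 7 genes were those of Mkx, from 60 to 247 in a library.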
